A study of Homo sapiens with 2 samples.

Results

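The extracellular matrix genes described here were 14 genes, measured by 15 probe sets, out of 14884 genes with 16098 named probe sets on the array. They were taken by symbol alone: the collagen, laminin and integrin chain genes, the small leucine-rich proteoglycans LUM, DCN, BGN, FMOD, OGN, ASPN, PRELP and KERA, the hyaluronan-binding proteoglycans VCAN and ACAN, the hyaluronan receptor gene LAYN, and the glycoprotein genes FN1, SPARC and TNC. Of the collagen genes, COL26A1 was the 1 with a named probe set. The other 43 collagen genes of the RefSeq table, its 12 laminin and 26 integrin chain genes and SPARC have no name on this array here and were not analysed here. The group is therefore mainly one of proteoglycans and matrix glycoproteins, and nothing below speaks for collagens, laminins or integrins as families.
Gene expression was examined in BE(2)-C cells, an established human neuroblastoma line with amplified MYCN, 48 hours after siRNA transfection. Control cells received scrambled control siRNA and the others received linc00467 siRNA, which the methods call linc00467 siRNA-1 and which targets the long noncoding RNA linc00467. Each condition gave 1 Affymetrix HuGene-2_0-st array, so that 1 line, 1 siRNA and 1 array stand for each condition. The methods do not state how many cultures gave the RNA of an array. With 1 array per condition there was no replicate, error or test for any difference below, and a difference between the cultures and an effect of the siRNA cannot be told apart. The number of arrays sets the precision.
The extracellular matrix is the network of secreted proteins around cells. Small leucine-rich proteoglycans bind collagen fibrils and regulate their assembly, hyalectans such as versican and aggrecan bind the polysaccharide hyaluronan, and fibronectin and tenascin C are large glycoproteins that cells contact through integrins. In neuroblastoma, a tumour of the sympathetic lineage, matrix is also made by stromal cells, which a cell line lacks.

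The targeted RNA was examined first. LINC00467 (chromosome 1, probe set 16677153) was measured at a log2 level of 6.55 after control siRNA and at 5.67 after linc00467 siRNA, a log2 difference of -0.88, or 0.543 times the control level. As a check of the cell type, 12 of 15 sympathetic neuroblast markers had named probe sets, with log2 levels between 6.52 and 11.9 on the control siRNA array. All 12 lay at or above 5.68, the median of the mean levels of named probe sets. That line alone does not single out a cell type. It was also reached by 2 of 4 named Schwann cell, 2 of 7 fibroblast and smooth muscle, 1 of 3 blood cell and 0 of 6 endothelial markers. The lowest neuroblast marker had 6.52 with control siRNA, where the 95th percentile of genes taken as silent was 6.41. With linc00467 siRNA the lowest had 6.41, beside 6.38. The deposited log2 levels of all 53617 probe sets spanned 0.90 to 13.5 for control siRNA and 0.89 to 13.61 for linc00467 siRNA. Levels of different probe sets also differ with probe affinity, so that a place above or below this median or the silent families used below describes the signal of a probe set and not the abundance of its RNA against other genes.

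The deposited data hold no sequences, and the promoters of members were therefore read from RefSeq (GRCh38.p14). An entry was present for 10 of the 14 members and not for DCN, KERA, LAYN and LUM. Sequences are shown for 4 members: the chromosome 1 neighbours FMOD and PRELP, which had the largest positive differences among members with an entry, TNC, which had the largest negative one, and BGN. Each run gives the 250 bases before the annotated start, read 5′ to 3′ along the strand of the gene. Capitals mark GGGCGG or its reverse complement CCGCCC, the GC box bound by Sp1 proteins.
FMOD, chr1:203351123-203351372, minus strand: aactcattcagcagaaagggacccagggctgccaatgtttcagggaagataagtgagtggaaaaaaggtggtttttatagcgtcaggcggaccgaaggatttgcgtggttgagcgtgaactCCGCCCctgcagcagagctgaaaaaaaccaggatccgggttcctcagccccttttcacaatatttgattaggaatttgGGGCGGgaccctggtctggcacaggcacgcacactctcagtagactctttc
PRELP, chr1:203475556-203475805, plus strand: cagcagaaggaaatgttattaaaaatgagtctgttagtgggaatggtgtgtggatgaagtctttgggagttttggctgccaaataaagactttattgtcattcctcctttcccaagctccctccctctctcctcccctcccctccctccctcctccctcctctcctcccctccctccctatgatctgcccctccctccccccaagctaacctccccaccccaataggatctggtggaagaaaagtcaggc
TNC, chr9:115118158-115118407, minus strand: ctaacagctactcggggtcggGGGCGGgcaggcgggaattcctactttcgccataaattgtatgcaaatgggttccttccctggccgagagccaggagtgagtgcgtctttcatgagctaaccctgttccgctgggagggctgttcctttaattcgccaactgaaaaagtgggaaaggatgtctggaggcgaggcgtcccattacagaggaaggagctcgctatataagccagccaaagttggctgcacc
BGN, chrX:153494730-153494979, plus strand: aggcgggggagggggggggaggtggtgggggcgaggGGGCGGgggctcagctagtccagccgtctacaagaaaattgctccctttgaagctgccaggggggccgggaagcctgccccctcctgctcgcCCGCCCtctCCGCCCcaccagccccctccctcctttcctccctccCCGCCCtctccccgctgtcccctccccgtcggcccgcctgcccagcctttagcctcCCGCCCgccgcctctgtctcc
BGN had 5 GC boxes in these 250 bases, FMOD had 2, TNC had 1 and PRELP had 0. Of the 10 members with an entry, ACAN, BGN, FMOD, FN1, TNC and VCAN had at least 1, that is 6 of 10. Among all 35116 RefSeq windows of this length, 42.6% had one. This share counts windows, of which a gene can have several, while the members are counted by gene. The E-box CACGTG, a binding sequence of Myc proteins that reads the same on both strands, was in 0 of the 10, and in 6.34% of all windows. These matches describe the letters only. FMOD and PRELP, the pair with similar small positive differences, differed in this respect, and the promoters are not evidence for binding of any factor.

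LUM and LAYN stood far above the other members in their difference between the arrays. LUM was 2.94 fold higher and LAYN was 2.15 fold higher with linc00467 siRNA than with control siRNA, and the log2 differences of the other 12 members lay between -0.40 and 0.18. At the cut-off of 1.8 fold used in the study, 2 of 14 members were higher, beside 0.222% of all 14884 genes, and 0 were lower, beside 0.558%. At 1.2 fold, 2 members were higher, beside 8.56% of all genes, and 1 was lower, beside 9.72%. LUM and LAYN also passed 1.5 fold and 2 fold, with a background of 1.07% and 0.107% of genes for higher levels and of 1.9% and 0.222% for lower ones. At 1.1 fold, 4 members were higher, beside 19.2%, and 2 were lower, beside 18.2%. The median log2 difference of the 14 members was 0.00, as it was for all genes, and it was also 0.00 without LUM and LAYN. The members were chosen with these values known, and the counts describe the arrays.

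**Figure D1:**
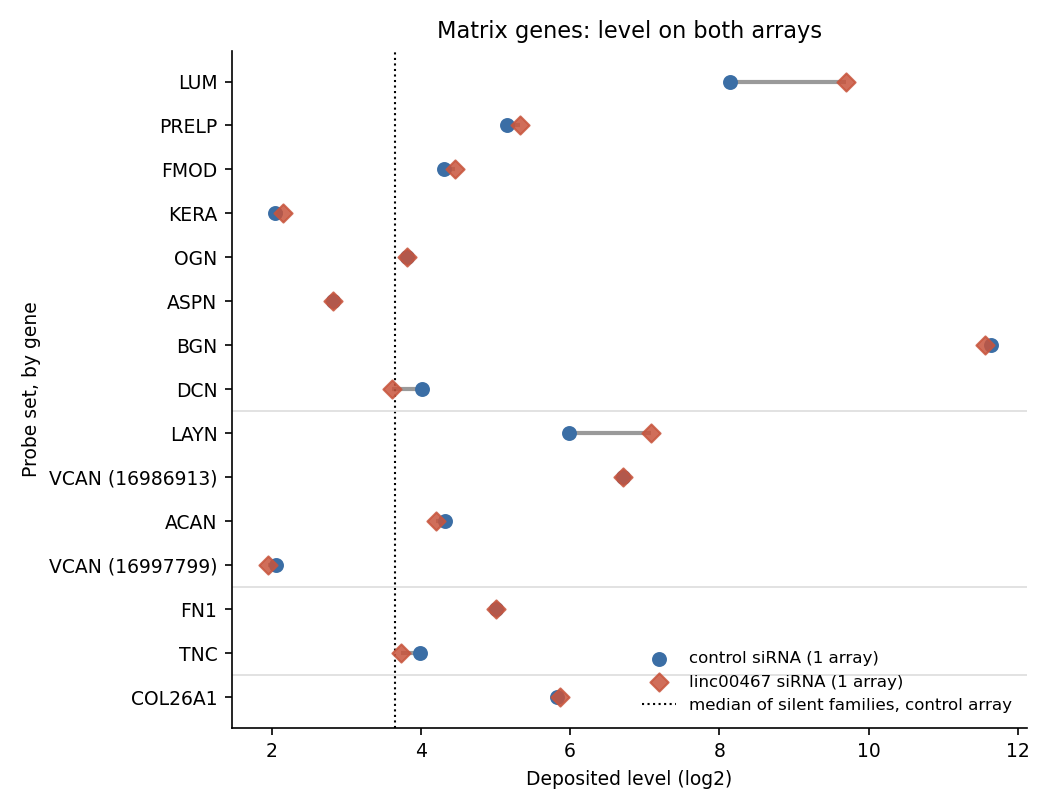
Deposited log2 level (x axis) of each of the 15 member probe sets (y axis, by gene class) on the control siRNA array (circles) and the linc00467 siRNA array (diamonds), 1 array each. LUM and LAYN are the probe sets with long lines to the right, from 8.14 to 9.70 and from 5.98 to 7.09, whereas DCN and TNC have short lines to the left. The dotted line is the median of olfactory receptor and keratin-associated protein genes, taken as silent, on the control siRNA array.

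LUM encodes lumican, a keratan sulphate proteoglycan that spaces collagen fibrils and is best known from the cornea. Its probe set (16768406, chromosome 12) gave a log2 level of 8.14 after control siRNA and of 9.70 after linc00467 siRNA, a log2 difference of 1.56. This was the largest positive difference of all 16098 named probe sets, and the 20th largest of all 53617. The value was well inside the measured range on both arrays, above the 95th percentile of olfactory receptor and keratin-associated protein genes, which are taken as silent in these cells (6.41 with control siRNA and 6.38 with linc00467 siRNA).
LAYN encodes layilin, a membrane protein that binds hyaluronan. Its probe set (16731068, chromosome 11) gave a log2 level of 5.98 after control siRNA and of 7.09 after linc00467 siRNA, a log2 difference of 1.103, which ranked 11th among named probe sets and 118th among all 53617. Unlike LUM, LAYN lay below the 95th percentile of the silent families on the control siRNA array and above it on the linc00467 siRNA array. The next highest member after LAYN was PRELP, at a log2 difference of 0.18.

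**Figure D2:**
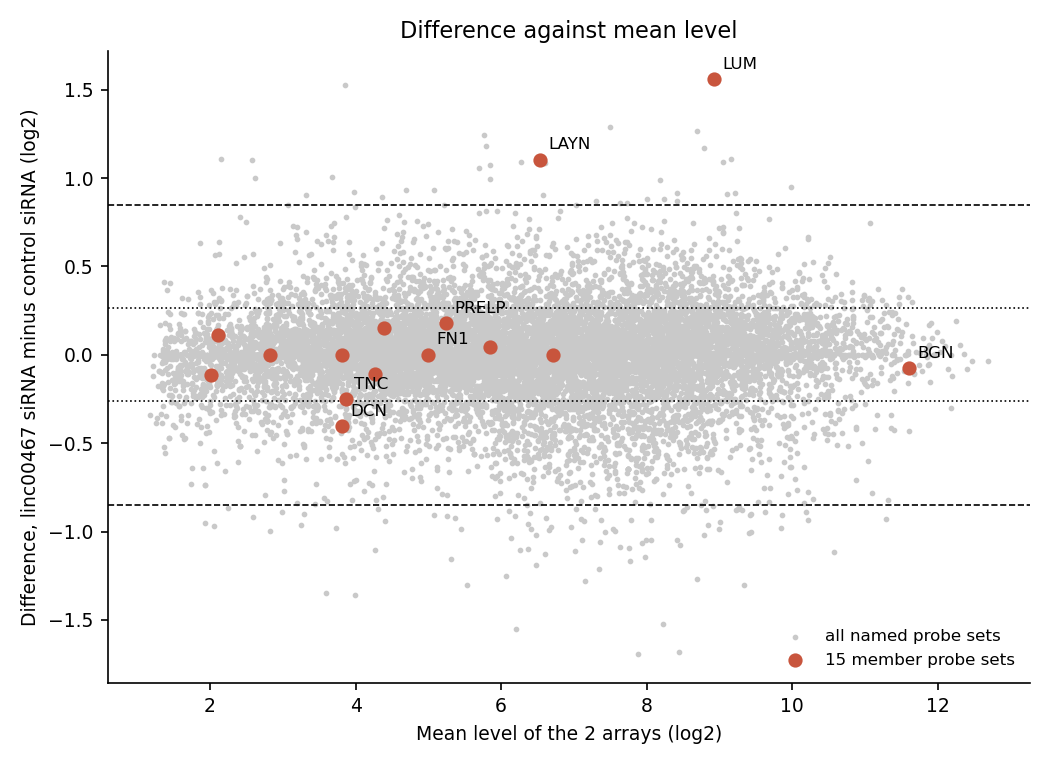
Log2 difference, linc00467 siRNA minus control siRNA (y axis), against the mean log2 level of the 2 arrays (x axis) for all named probe sets (grey) and the 15 member probe sets (red). Dashed lines mark 1.8 fold and dotted lines 1.2 fold. LUM at 1.56 has the highest difference of all named probe sets, LAYN lies at 1.103, and DCN at -0.40 is the 1 member below the lower dotted line.

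The small leucine-rich proteoglycans held both the largest positive and the largest negative difference of the group. Past 1.2 fold LUM was higher, beside 8.56% of all genes, and DCN lower, beside 9.72%, and the other 6 of the 8 genes were within it. At this fold a count of 1 of 8 each way is near those shares. The median log2 difference of the 8 was 0.06. DCN encodes decorin, a dermatan or chondroitin sulphate proteoglycan that binds collagen and TGF-beta. DCN had log2 levels of 4.02 after control siRNA and 3.61 after linc00467 siRNA, a log2 difference of -0.40, or 0.755 times the control level. Both levels were close to the median of the silent families, 3.65 and 3.73, and on the linc00467 siRNA array DCN was below it.
BGN, the gene of biglycan, the proteoglycan closest to decorin, had log2 levels of 11.64 after control siRNA and 11.56 after linc00467 siRNA, a log2 difference of -0.07. Its signal was strong and nearly the same on both arrays. PRELP, which encodes a proteoglycan that links basement membrane to matrix, went from 5.15 to 5.33, a log2 difference of 0.18. FMOD, the gene of the collagen-binding proteoglycan fibromodulin, went from 4.31 to 4.46, a log2 difference of 0.15. Both passed 1.1 fold and neither passed 1.2 fold. KERA, the keratocan gene, expressed mainly in the cornea, had 2.05 and 2.16, below the median of the silent families on both arrays.
OGN, the gene of osteoglycin, had a log2 level of 3.82 on both arrays and ASPN, the gene of asporin, had 2.82 on both, exactly equal values in each case. These values were not particular to the genes. On the control siRNA array the exact value of OGN recurred in 285 further probe sets and that of ASPN in 376, and on the linc00467 siRNA array in 280 and 377. Exact equality between the arrays was present for 4 of the 15 member probe sets, or 26.7%, beside 22.9% of all named probe sets. Of the 15, 8 had a value on both arrays that recurred in no other probe set, beside 57.9% of named probe sets. These 8 were the probe sets of LUM, LAYN, DCN, BGN, TNC and ACAN and both of VCAN. In contrast, KERA, FMOD and COL26A1 on the linc00467 siRNA array shared their value with 147, 58 and 21 other probe sets, so that their small differences end on a recurring value.

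The hyaluronan-binding members other than LAYN had small differences. VCAN, which encodes versican, a large proteoglycan of embryonic and tumour matrix, had 2 probe sets. One (16986913) had a log2 level of 6.71 on both arrays, an exactly equal value that recurred in no other probe set. The other (16997799) had 2.07 with control siRNA and 1.95 with linc00467 siRNA, a log2 difference of -0.11. The mean of both was -0.06, and the probe sets disagreed in level, since the second was below the median of the silent families on both arrays. ACAN, the gene of the cartilage proteoglycan aggrecan, went from 4.32 to 4.21, a log2 difference of -0.11. The 3 genes of this class thus had log2 differences from -0.11 to 1.103, with a median of -0.06.
The glycoprotein genes were not higher after linc00467 siRNA. FN1, the fibronectin gene, had a log2 level of 5.002 on both arrays, exactly equal, and this value recurred in 70 and 72 further probe sets of the respective arrays. TNC, which encodes tenascin C, a glycoprotein of developing and remodelled tissue, had 3.99 with control siRNA and 3.74 with linc00467 siRNA, a log2 difference of -0.25. TNC was at 0.841 times its control level, just short of 1.2 fold, and like DCN it was near the silent families on both arrays. COL26A1, which encodes a collagen known from testis and ovary of mice, went from 5.82 to 5.86, a log2 difference of 0.04.

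The members near LUM on chromosome 12, KERA and DCN, did not show its difference, but their signals were near or below the median of the silent families. With signals this low, a shared difference could have been missed. EPYC, KERA, LUM and DCN, all genes of small leucine-rich proteoglycans, follow each other in this order among the named genes of chromosome 12. EPYC, the epiphycan gene, had a log2 level of 3.82 on both arrays, the same recurring value as OGN. KERA had a log2 difference of 0.11, LUM 1.56 and DCN -0.40. Of the 5 named genes on each side of LUM, the furthest from 0 after DCN was NUDT4 at -0.32, and EEA1, with a level of 8.38 after control siRNA, had 0.06.
The picture around LAYN was different on one side. SIK2, a kinase gene that follows LAYN on chromosome 11, had log2 levels of 9.04 after control siRNA and 9.54 after linc00467 siRNA, a log2 difference of 0.50 and thus 1.41 fold higher. The other 9 of the 10 named neighbours of LAYN had log2 differences from -0.19 to 0.17. On chromosome 9, OMD, the osteomodulin gene, lies between OGN and ASPN, and had 3.09 with control siRNA and 2.89 with linc00467 siRNA. On chromosome 1, FMOD and PRELP were followed by OPTC, the opticin gene of the same proteoglycan family, with a log2 difference of -0.09 against 0.15 and 0.18. The neighbours were taken by gene order in the RefSeq table, after their values had been seen, and genes unnamed here may lie between them.

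**Figure D3:**
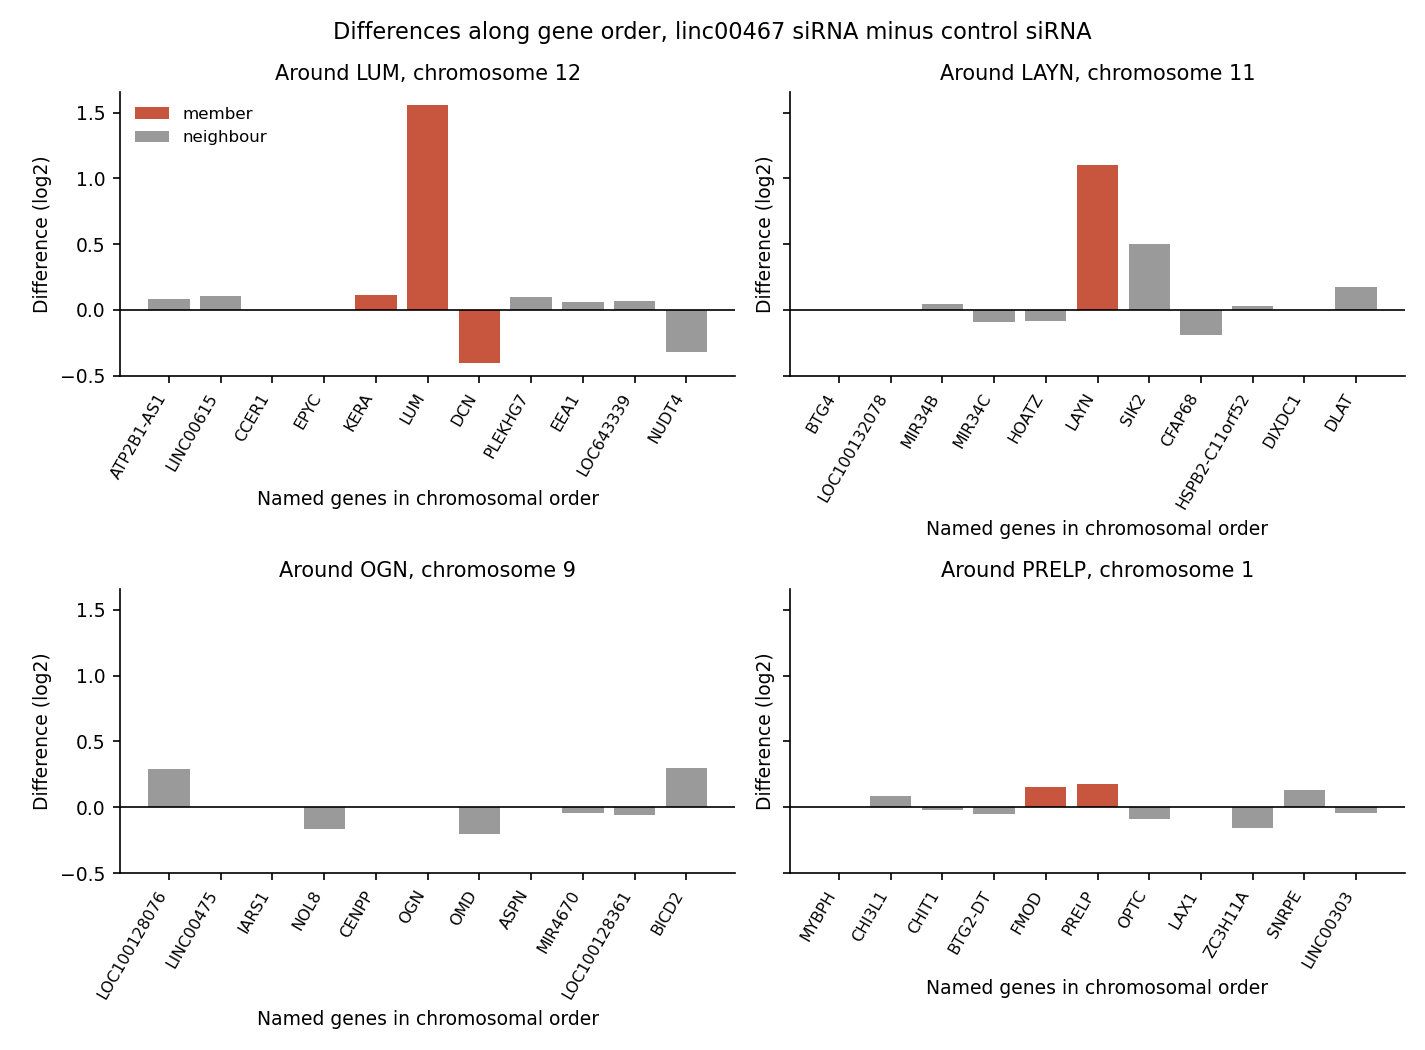
Log2 difference, linc00467 siRNA minus control siRNA (bars, y axis), for LUM, LAYN, OGN and PRELP and the 5 named genes on each side of each, in chromosomal order (x axis, not to scale), with members in red. LUM at 1.56 stands beside KERA at 0.11 and DCN at -0.40, LAYN at 1.103 beside SIK2 at 0.50, and the panels around OGN and PRELP hold differences from -0.21 to 0.30. OGN and ASPN show no bar because their values were equal.

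Genes that make, anchor or sense the matrix were set beside LUM and LAYN. In 5 lists of such genes, taken from general knowledge, 107 genes had named probe sets. Past 1.8 fold lay 0 in either direction, beside 0.222% of all genes higher and 0.558% lower. With shares this small, a count of 0 among 107 is near the background and is not a result about these genes. A mean level of at least 5.68 was reached by 10 of the 14 collagen-modifying genes and 5 of the 36 other matrix protein genes. It was also reached by 6 of the 18 protease and inhibitor genes, 14 of the 22 integrin adaptor genes and 9 of the 17 receptor genes. Of 14 named collagen-modifying enzyme and cofactor genes, 2 were past 1.2 fold upwards and 1 downwards, and for this and the next 4 lists the shares of all genes are 8.56% upwards and 9.72% downwards. P3H1, a prolyl hydroxylase gene, went from 7.95 to 8.32, a log2 difference of 0.37, and LOX, the lysyl oxidase gene, had 0.29. LOXL3, of the same family as LOX, had -0.28, and after quantile normalization 0 genes of this list were past 1.2 fold downwards. COLGALT1, which glycosylates collagen, had exactly equal levels of 10.29.
Of 36 named genes of basement membrane and other matrix proteins, 1 lay above 1.2 fold and 4 lay below it. FBLN2, the fibulin 2 gene, had a log2 difference of 0.36. The lower ones were THBS3, a thrombospondin gene, with -0.45, HAPLN1, which encodes a link protein of hyaluronan and proteoglycans, with -0.45, VTN, the vitronectin gene, with -0.38, and ELN, the elastin gene, with -0.33. Of these 5, THBS3 was the 1 with a mean level at or above 5.68. Of 18 named matrix protease and inhibitor genes, MMP16, a membrane-type metalloproteinase gene, was higher with 0.33. TIMP3, an inhibitor gene, was lower with -0.30 as the mean of 2 probe sets. One of them went from 7.19 to 6.77, a log2 difference of -0.43, and the other from 4.20 to 4.02, a log2 difference of -0.17.
Of 17 named genes of other matrix receptors, 2 were higher past 1.2 fold and 0 were lower past it. Exactly equal on both arrays were 9 of the 17, beside 3225 of all 14884 genes. The 2 higher ones were the heparan sulphate proteoglycan genes SDC4, a syndecan, with a log2 difference of 0.36, and GPC6, a glypican, with 0.31. CD44, the main hyaluronan receptor of many cells, had an equal level of 3.81 on both arrays, close to the medians of the silent families, 3.65 and 3.73. Of 22 named genes of integrin adaptors and signalling, VCL, the vinculin gene, was higher with 0.39 and PXN, the paxillin gene, was lower with -0.44. ITGB1BP1, whose protein binds the cytoplasmic tail of an integrin, had equal levels of 7.11. LOX, FBLN2, HAPLN1, VTN, ELN, TIMP3, COLGALT1, CD44 and ITGB1BP1 were picked with their values in view.

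**Figure D4:**
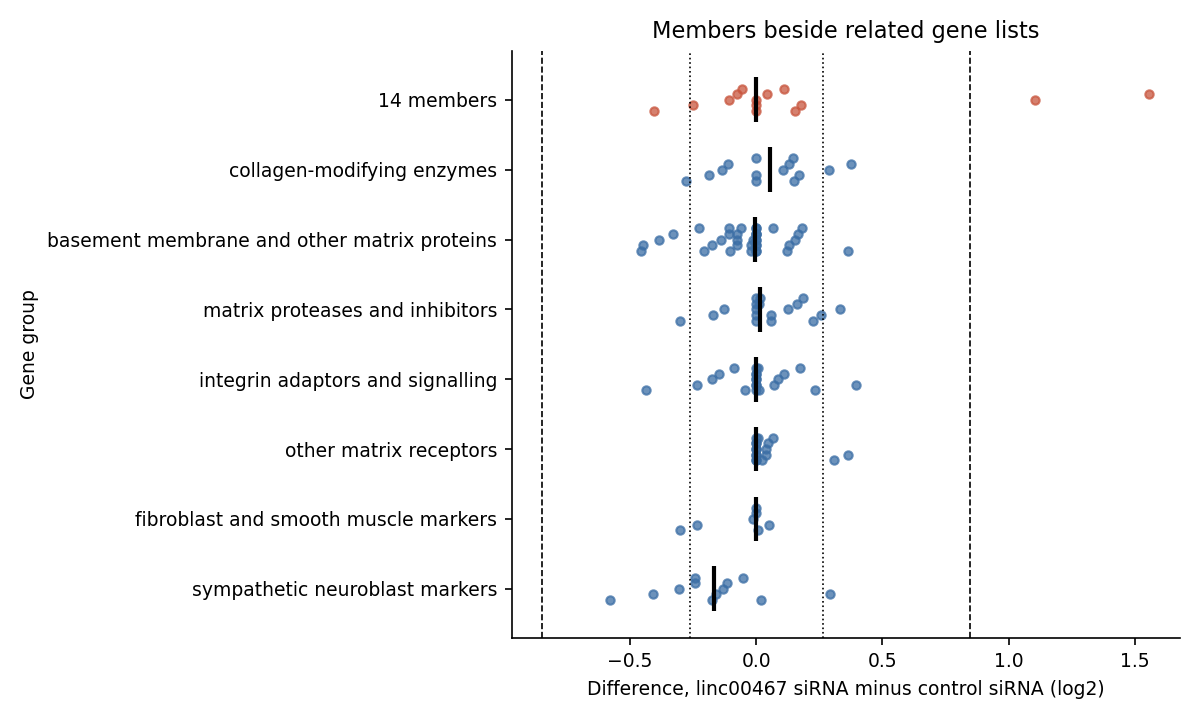
Log2 difference, linc00467 siRNA minus control siRNA (x axis), of each named gene (points) in the 14 members (red) and in 7 related lists (blue, y axis), with the median of each as a black bar. Dotted lines mark 1.2 fold and dashed lines 1.8 fold. LUM and LAYN are the 2 points past 1.8 fold, all points of the other lists lie between the dashed lines, and the sympathetic neuroblast markers have the lowest median, -0.17.

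Lumican is made mainly by fibroblasts and related mesenchymal cells, and markers of fibroblasts and smooth muscle were therefore examined beside it. Of 12 such markers, 7 had named probe sets. Of these, 0 lay above 1.2 fold, beside 8.56% of all genes. Below it lay 1, S100A4, with -0.30, beside 9.72% of all genes. S100A4 had a low level, from 5.04 to 4.74, and 2 of the 7 had a mean level at or above 5.68. The summed log2 level of the 7 was 38.4 with control siRNA and 37.9 with linc00467 siRNA, and the highest difference of a marker was 0.05. THY1 had 7.50 and 7.51, TWIST1, which is also expressed by neuroblastoma cells, had 7.97 and 7.73, and PRRX1 had 5.18 and 5.16. TCF21 and TWIST2 had equal low values of 3.87 and 3.60. The markers named here were picked with their values in view. PDGFRA, PDGFRB, ACTA2, CNN1 and MYH11 are unnamed here. Fewer cells of a type and less RNA per cell cannot be told apart in such bulk RNA. The sympathetic neuroblast markers had a median log2 difference of -0.17, with 3 of 12 past 1.2 fold downwards, beside 9.72% of all genes, and 1 upwards, beside 8.56%. Lower were CHGA with -0.58, from 10.26 to 9.68, DBH with -0.41 and GATA3 with -0.30, and higher was ISL1 with 0.29. The lower count was 5 after lowess. Their part in the LUM and LAYN values was not tested.

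LUM, LAYN and DCN kept their direction and their side of each fold under the treatments that changed their values. Quantile normalization and lowess changed each of them, and the floor changed DCN alone. Centring and the use of 1 probe set per gene could change none, since the median difference was 0 and each has 1 probe set. All treatments used the same 2 arrays. Across centring, quantile normalization, a lowess correction, a floor at the silent families and the use of 1 probe set per gene, the log2 difference of LUM lay between 1.53 and 1.58, and that of LAYN between 1.103 and 1.15. That of DCN lay between -0.42 and -0.29, the smallest size being with the floor. VCAN, within 1.2 fold throughout, was on both sides of 0, between -0.06 and 0.04.

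**Figure D5:**
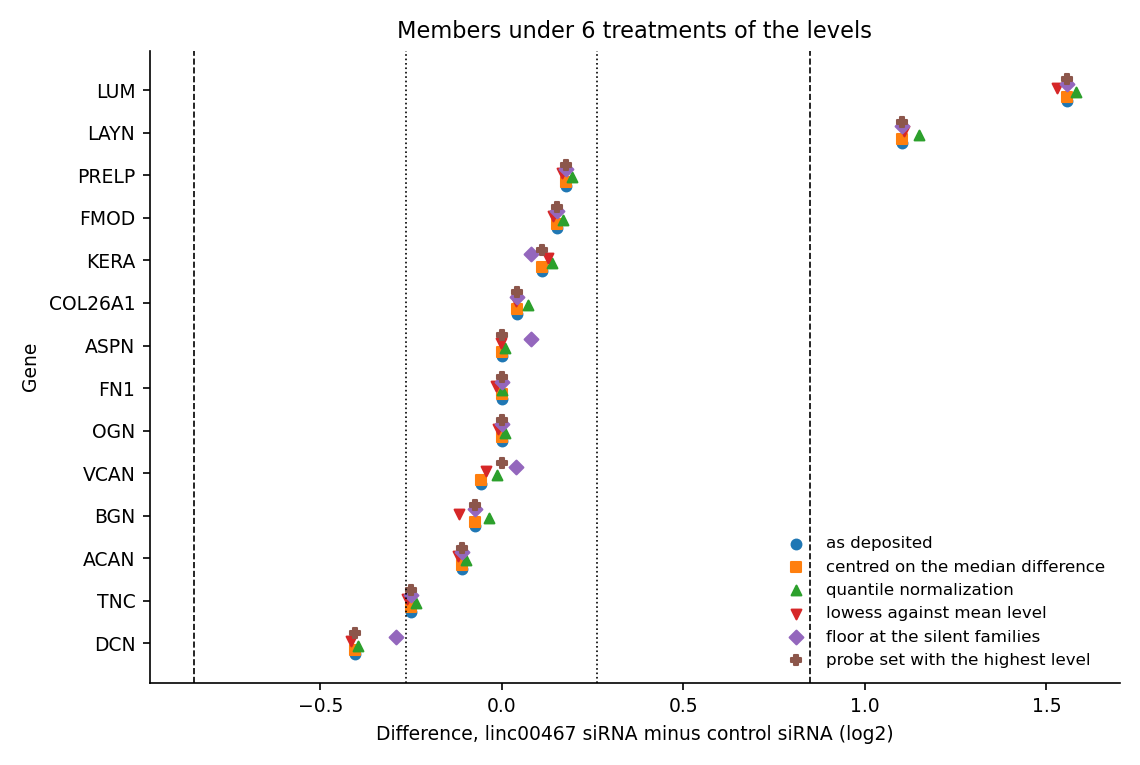
Log2 difference, linc00467 siRNA minus control siRNA (x axis), of the 14 members (y axis) with the levels as deposited and under 5 other treatments (marker shapes). Dotted lines mark 1.2 fold and dashed lines 1.8 fold. LUM stays between 1.53 and 1.58 and LAYN between 1.103 and 1.15, whereas DCN moves from -0.40 to -0.29 with the floor.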

How the data were processed

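Total RNA of BE(2)-C cells, 1 sample per condition, was hybridized to Affymetrix HuGene-2_0-st arrays. The methods do not state how many cultures gave each sample. The authors deposited log2 levels per probe set, made in R with Bioconductor per the methods, while MAS5 is named by the submitters' processing notes. The sources used here do not give normalization, versions or genome build, and background treatment affects low levels most. The control siRNA level was subtracted from the linc00467 siRNA level, and a fold is 2 raised to that difference. Probe sets of a gene were averaged. The platform annotation gave 1 symbol for 16098 probe sets, none for 37519 and several for 0. All 16098 symbols were unchanged in the RefSeq table (GRCh38.p14), used for gene order and promoters.

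With 1 array per group no test was possible, and counts past a fold are set beside those of all 14884 named genes. Text names every member, the targeted gene, and at most 4 genes per list with the largest difference at a level of at least 5.68. Others are named as chosen later. Members and lists were chosen with earlier results of these data known. The lists cover collagen-modifying enzymes, other matrix proteins, proteases, receptors, integrin adaptors, and neuroblast, fibroblast, Schwann, endothelial and blood cell markers. Alternatives were centring, quantile normalization, lowess (fraction 0.2), a floor at the median of 86 silent probe sets, a level filter, the highest probe set and other folds. Counts after centring were required to recover differences planted in simulated data. Quantile normalization and lowess were run on the same simulated data without such a requirement. The simulated spread was smaller than the real one. Python 3.11.15, numpy 2.4.6, pandas 2.3.3, statsmodels 0.14.6 and matplotlib 3.10.9 were used.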

Additional observations from a re-analysis of the deposited data

How the results depend on the processing

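The counts of members past 1.8 fold and past 1.2 fold and the median difference of members were recomputed under each alternative. Of 24 such values, 23 stayed within 1.5 times the main count or within 0.1 of the main median. The exception was the count of members past 1.2 fold, which was 3 and became 6 at 1.1 fold. At 1.1 fold 19.2% of all genes were higher and 18.2% lower, and at 1.2 fold 8.56% and 9.72%. With the level filter, 5 members were left, of which 2 were past 1.2 fold upwards and 0 downwards, with a median of 0.04. Of the 8049 named probe sets at or above that level, 10.7% were past 1.2 fold upwards and 13.4% downwards. Of the 195 values of single genes and list counts, 186 were kept in this sense (single genes within 0.125, the robust SD of all named differences) and 9 list counts moved, by up to 3 genes each, 5 of them with the level filter, which leaves fewer genes. Of the others, quantile normalization moved 3, the higher counts of the protease and integrin adaptor lists from 1 to 2 and the lower count of collagen-modifying enzymes from 1 to 0, and lowess moved the lower count of neuroblast markers from 3 to 5. The median without LUM and LAYN and the count of each probe set on its own were chosen after seeing the data. Quantile normalization shifted the median of all genes by 0.02, and centring could change no value because that median was 0 as deposited. The lack of a replicate limits every value. Levels near the median of the silent families, as for DCN, TNC, OGN, KERA, ASPN and 1 probe set of VCAN, are a further limit. Of the member probe sets, those of BGN and LUM and 1 of VCAN alone were above the 95th percentile of the silent families on both arrays. The others, also those of FN1, COL26A1, PRELP, FMOD and ACAN, were within the range of silent genes on at least 1 array. No paired analysis was possible because each group has 1 array.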

Other observations

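Markers of other cell types were low or differed little. For the counts here, the shares of all genes past 1.2 fold are 8.56% upwards and 9.72% downwards. Of 4 named Schwann cell markers 0 were past 1.2 fold, with log2 levels from 4.20 to 5.96 on the control siRNA array. SOX10, the lineage factor, had an equal value of 5.81 on both arrays. Of the 4, 2 were at or above 5.68, the median level of named probe sets. Of 6 named endothelial markers none reached that median, and 1 was past 1.2 fold upwards and 0 downwards. The 1 was ESAM, an adhesion gene chosen after its values had been seen, with a log2 difference of 0.36, from 5.02 to 5.39. Of 3 named blood cell markers 0 were past 1.2 fold, and CD68, a lysosomal gene that many cells express, had 7.50 and 7.41. Their part in the values of the matrix genes was not tested.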
